A study of Mus musculus with 4 samples.

Results

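Monocyte genes were followed in the splenocytes of 3-week-old DBA/1 offspring after perinatal exposure to benzylbutylphthalate (BBP), a plasticiser. The set holds 10 genes of 30741 gene symbols on the array: Ace, Serpinb10, Lilr4b, Treml4, Ly6c2, Csf1r, Lyz2, Cd14, Cd300e and F13a1. They were chosen by symbol, with the BBP/control values of these 4 arrays already known, so that their values in that contrast are a description and carry no test. Each of the 10 symbols had 1 transcript cluster, the array's unit for a gene or transcript.

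The BBP pools held splenocyte RNA of 6 female and of 4 male offspring whose mothers' water contained BBP (3 μg/ml) through gestation and lactation, with intake already under way in the week that led up to mating. The control pools held RNA of 12 female and of 4 male offspring whose dams drank normal water. RNA of these 26 animals was taken at weaning, and arthritis had not been induced in them. Since the dams were exposed and no source used here names the litters, an effect of litter cannot be told apart from that of BBP. Each pool was hybridised to 1 Clariom D mouse array. Every group is a single pool (n = 1) and so has no replicate, the number of arrays limits the precision, and the spread between animals or litters within a pool is unknown. The agreement of the female pair (BBP female over control female pool) with the male pair (BBP male over control male pool) is the only measure of error, and both the sex and the number of animals differ between these pairs.

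Monocytes are blood phagocytes made in the bone marrow, and the mouse spleen holds a reservoir of them. Classical monocytes carry much Ly6C and the chemokine receptor CCR2 and enter inflamed tissue, whereas nonclassical monocytes carry little Ly6C, depend on the transcription factor NR4A1 and patrol the vessel wall. Growth and survival of the lineage depend on the CSF1 receptor, and neutrophils and macrophages share many of its granule and lysosomal genes.

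The deposited values are linear signal intensities from MAS 5.0, scaled between the arrays by the authors. The comparison was made with 10719 genes, those whose signals reached 100 on 2 or more arrays, and 8 of the 10 monocyte genes passed this filter, all but Cd14 and Cd300e. Among the comparison genes the median of the log2 ratio of BBP over control was -0.09 for females and -0.15 for males. Scaling the arrays to 1 common median would add 0.12 to every log2 ratio of the female pair and 0.17 to every one of the male pair, so that ratios and list medians between 0 and -0.12 in females or between 0 and -0.17 in males would turn positive. Negative control features had medians of 51.1 to 64.1, with 95th percentiles of 671 to 904. A signal in splenocyte RNA cannot tell fewer cells of a type apart from less RNA per cell.

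All 10 monocyte genes were below the control pool in the female pair, as were 62.2% of the comparison genes. In the male pair 6 of the 10 were above the control pool, against 30.6% of the comparison genes. The pairs thus had opposite signs for 6 of the 10, namely Ace, Serpinb10, Lilr4b, Ly6c2, Cd14 and F13a1, where 27.8% of the comparison genes had opposite signs. The other 4 of the 10, Treml4, Cd300e, Lyz2 and Csf1r, were below the control in both pairs, as were 51.5% of the comparison genes. Among the 8 members that passed the filter, 5 had opposite signs and 3 were below the control in both pairs. With the mean of both control pools as the reference for each BBP pool, only 2 of the 10 had opposite signs (a setting added after the data were seen).

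Of the members 3 of 10 were at least 2-fold lower in the female pair, namely Ace, Serpinb10 and Lyz2, beside 1.9% of the comparison genes. Lilr4b alone (1 of 10) was at least 2-fold higher in the male pair, beside 2.33% of the comparison genes. No member (0 of 10) was at least 2-fold lower in the male pair, where 3.08% of the comparison genes were, and 0 of 10 were at least 2-fold lower in both pairs, beside 0.541%. At a limit of 1.5-fold, Treml4 and Cd300e were lower in both pairs (2 of 10), beside 4.43% of the comparison genes. Cd300e did not pass the signal filter of the comparison genes. With a pseudocount of 50 its log2 ratios were -0.35 in the female and -0.37 in the male pair, short of 1.5-fold. Because the members were picked with this contrast known, nothing is read from these shares.

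**Figure D1:**
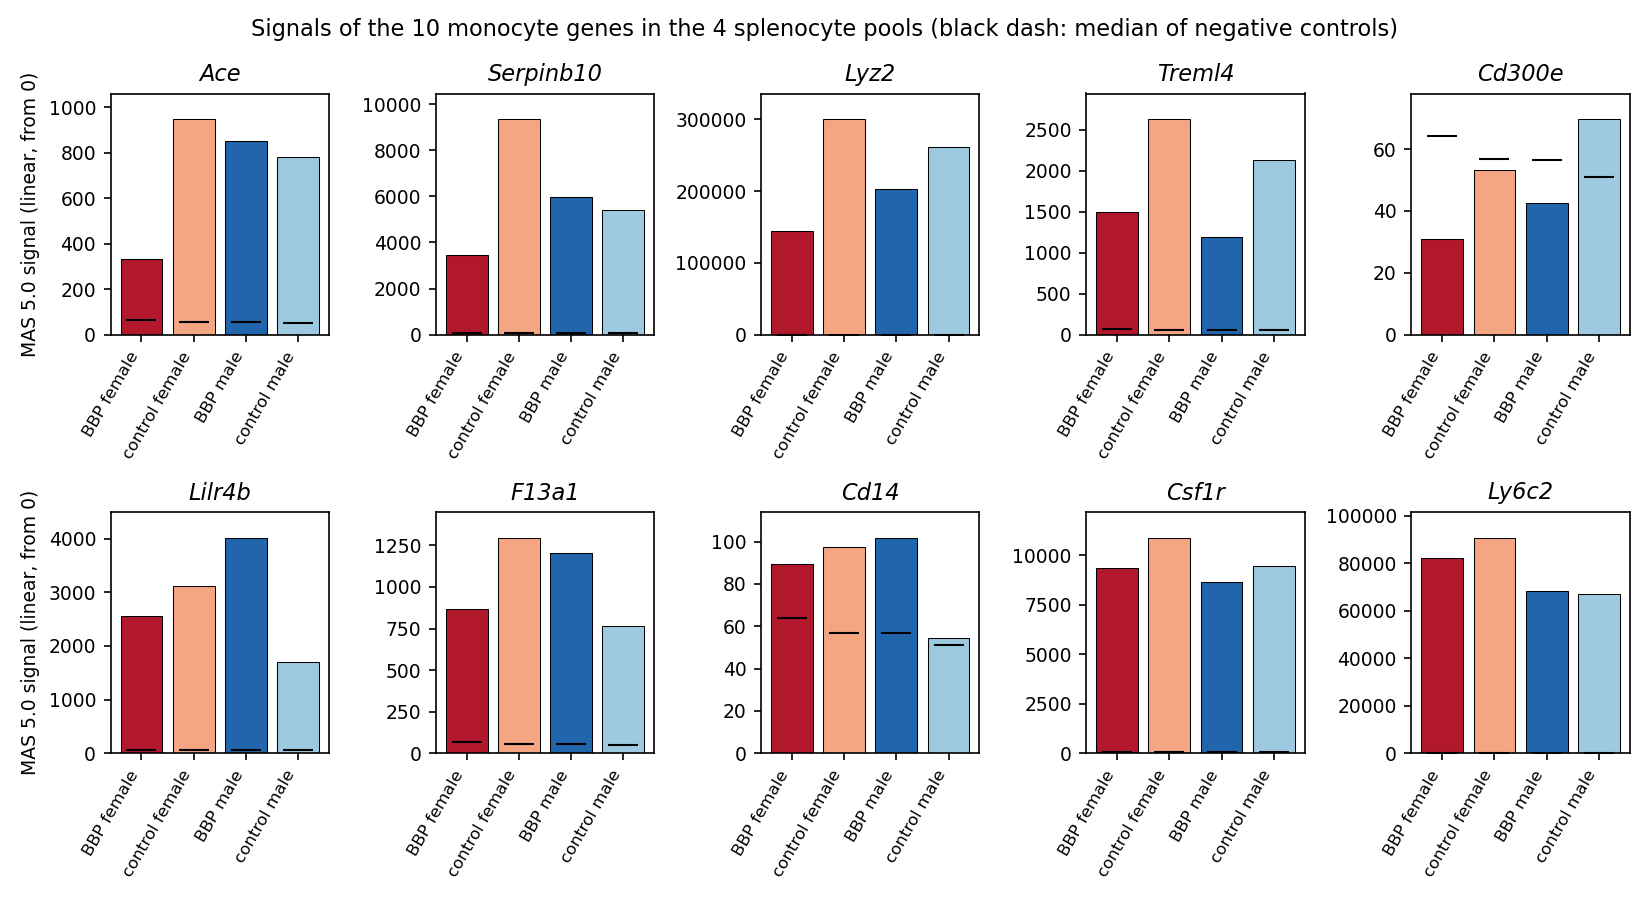
Signal (linear MAS 5.0 intensity, each axis from 0) of the 10 monocyte genes in the BBP female, control female, BBP male and control male pools, 1 array per bar, with the median of the negative control features of each array as a black dash. Ace and Serpinb10 were lowest in the BBP female pool, Lilr4b and F13a1 in the control male pool, Treml4 was lower in both BBP pools, and Cd14 and Cd300e lay near the negative controls.

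Ace, the angiotensin-converting enzyme, is a surface peptidase found at high levels on nonclassical monocytes. Its signal was 333 in the BBP female pool, against 946 in the control female pool. In males it was 852 in the BBP pool, against 782 in the control pool. The BBP female pool therefore stood alone below 3 pools that lay close together, with a 2.84-fold lower signal in the female pair (log2 -1.51) and a 1.09-fold higher one in the male pair (log2 0.12). The 333 of the BBP female pool is 5.20 times the median of that array's negative controls and below their 95th percentile of 904, and the 852 of the BBP male pool is close to its 95th percentile of 847.

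Serpinb10 encodes a clade B serpin, also known as bomapin, an intracellular serine protease inhibitor of haematopoietic cells. Its signal was 3436 in the BBP female pool, against 9343 in the control female pool. The BBP male pool had 5991, against 5405 in the control male pool. It was 2.72-fold lower in the female pair (log2 -1.44) and 1.11-fold higher in the male pair (log2 0.15). Unlike for Ace, the control female pool was also well above both male pools, and the signals were at least 53.6 times the median of the negative controls in all 4 pools.

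The pairs differed by 1.63 on the log2 scale for Ace and by 1.59 for Serpinb10 (male pair minus female pair). The median absolute difference between the pairs was 0.20 for the 3573 comparison genes with a mean signal like that of Ace and 0.22 for the 3573 with a mean signal like that of Serpinb10. A difference at least as large was found for 0.224% of the genes of like signal for Ace and for 0.112% for Serpinb10. These values were known when the set was chosen, and the percentages only describe the place of both genes among the others.

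**Figure D2:**
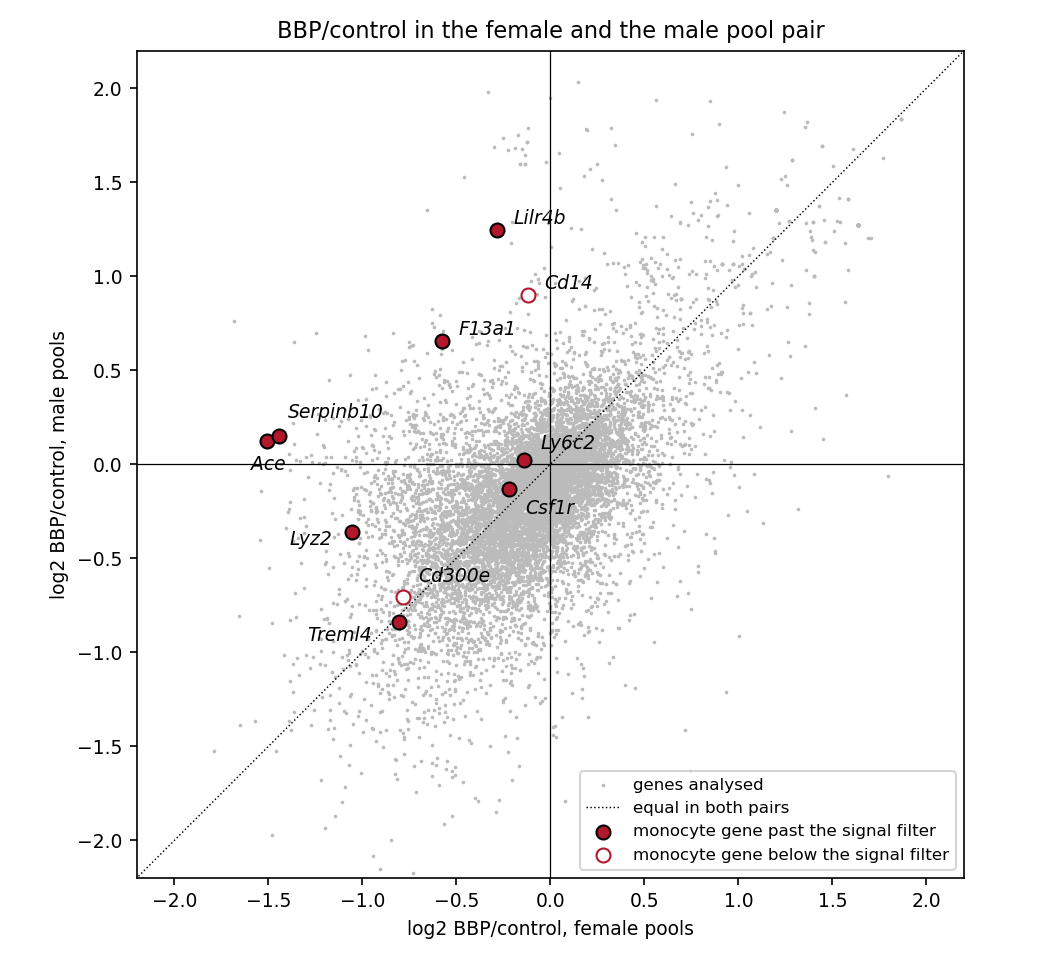
log2 ratio of BBP over control in the female pools (x axis) and in the male pools (y axis) for the 10719 comparison genes (grey) and the 10 monocyte genes (red, open where the signal filter was not passed), with a dotted line where both pairs are equal; 2 grey points lie outside the axes. Treml4, Cd300e, Csf1r and Ly6c2 sit near the line, and Ace, Serpinb10, Lilr4b and F13a1 sit far above it.

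Treml4, a TREM-like receptor of the myeloid surface that binds dead cells, had nearly the same ratio in both pairs. Its signal was 1500 in the BBP female pool, against 2626 in the control female pool. It was 1186 in the BBP male pool, against 2125 in the control male pool. Both BBP pools were below both control pools, by 1.75-fold in the female pair (log2 -0.81) and by 1.79-fold in the male pair (log2 -0.84). The pairs differed by 0.03, and 92.0% of the genes of like signal had a difference at least as large.

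Cd300e encodes an activating immunoglobulin-like receptor of monocytes. Its signals were 31.0 in the BBP female pool, against 53.3 in the control female pool, and 42.7 in the BBP male pool, against 69.6 in the control male pool. Its log2 ratios were -0.78 and -0.70 in the female and the male pair. Of the 4 signals, 3 were below the median of the negative controls of their own array, all but that of the control male pool, so that these ratios are between signals at background.

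Lilr4b and F13a1 were lowest in the control male pool. Lilr4b, a leukocyte immunoglobulin-like receptor of myeloid cells, had a signal of 2568 in the BBP female pool, against 3127 in the control female pool. In males it had 4018 in the BBP pool, against 1693 in the control pool. The female pair was 1.22-fold lower (log2 -0.28) and the male pair 2.37-fold higher (log2 1.25), a difference of 1.53 between the pairs that was reached by 0.308% of the genes of like signal. The male pools were the highest and the lowest of the 4, with both female pools between them.

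F13a1 encodes the A subunit of coagulation factor XIII, a transglutaminase that cross-links fibrin and is made by monocytes and platelets. Its signal was 868 in the BBP female pool, against 1296 in the control female pool, and 1204 in the BBP male pool, against 766 in the control male pool. It was 1.49-fold lower in the female pair (log2 -0.58) and 1.57-fold higher in the male pair (log2 0.65). The control female and BBP male pools were high and the other two were low. The pairs differed by 1.23, a difference that 1.37% of the genes of like signal reached. The 868 of the BBP female pool is below the 95th percentile of that array's negative controls, 904.

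Cd14, the lipopolysaccharide co-receptor of monocytes, had signals of 89.5 in the BBP female pool, against 97.4 in the control female pool, and of 102 in the BBP male pool, against 54.6 in the control male pool. The log2 ratios were -0.12 and 0.90. With 1.07 to 1.80 times the median of the negative controls, Cd14 was hardly above background in any pool, and its male ratio rests on a control signal of 1.07 times that median.

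Lyz2, lysozyme M, is among the most abundant transcripts of monocytes, macrophages and neutrophils. Its signal was 144049 in the BBP female pool, against 299868 in the control female pool, and 203052 in the BBP male pool, against 260747 in the control male pool. Both BBP pools were below both control pools, 2.08-fold in the female pair (log2 -1.06) and 1.28-fold in the male pair (log2 -0.36). The difference between the pairs was 0.70, which 10.2% of the genes of like signal reached. The female fold was under 2 after quantile normalization (log2 -0.88) and after median scaling (log2 -0.94).

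Csf1r and Ly6c2, markers of the lineage and of its classical subset, differed little between the pools, and their signals give no count of monocytes. Csf1r, the receptor for CSF1 and IL-34, had a signal of 9344 in the BBP female pool, against 10892 in the control female pool, and of 8674 in the BBP male pool, against 9487 in the control male pool. These signals were 146 to 191 times the median of the negative controls. The log2 ratios were -0.22 in the female and -0.13 in the male pair, and the male ratio was 0.04 after median scaling. Ly6c2 encodes Ly6C, a GPI-anchored surface protein that T cells and plasma cells carry as well. Its signal was 82429 in the BBP female pool, against 90767 in the control female pool, and 68395 in the BBP male pool, against 67226 in the control male pool. The log2 ratios of -0.14 and 0.02 lay close to the medians of all comparison genes, and both female pools were above both male pools.

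Upstream sequences of 5 members are printed as examples of 3 patterns: Ace and Serpinb10 (low in the BBP female pool), Lilr4b and F13a1 (low in the control male pool) and Treml4 (low in both BBP pools). These are not the only members with such patterns. Lyz2, and Cd300e at background, were also low in both BBP pools and lowest in the BBP female pool, and their sequences are not printed. Each run is the 250 bases that precede the RefSeq transcription start of assembly GRCm38.p6, from 5′ to 3′, and for genes with several starts the first listed is given (8 of the 10 members were matched). Capitals mark matches on either strand to motifs of factors known in myeloid cells: the PU.1 core GAGGAA, a C/EBP-like TTNCNNAA, the AP-1 motif TGANTCA, the RUNX motif TGTGGT and an IRF-like GAAANNGAA, where N is any base.
Ace (chr11:105967698-105967947, plus strand): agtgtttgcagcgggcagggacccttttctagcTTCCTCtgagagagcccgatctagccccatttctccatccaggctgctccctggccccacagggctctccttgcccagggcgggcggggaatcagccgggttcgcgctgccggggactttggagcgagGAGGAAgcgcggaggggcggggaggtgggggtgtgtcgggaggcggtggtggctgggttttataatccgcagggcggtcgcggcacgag
Serpinb10 (chr1:107528753-107529002, plus strand): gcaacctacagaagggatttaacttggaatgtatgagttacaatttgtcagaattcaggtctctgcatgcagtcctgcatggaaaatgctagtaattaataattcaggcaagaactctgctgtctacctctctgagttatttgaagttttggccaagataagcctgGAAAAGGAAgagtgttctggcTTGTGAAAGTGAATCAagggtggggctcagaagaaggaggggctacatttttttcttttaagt
Lilr4b (chr10:51480362-51480611, plus strand): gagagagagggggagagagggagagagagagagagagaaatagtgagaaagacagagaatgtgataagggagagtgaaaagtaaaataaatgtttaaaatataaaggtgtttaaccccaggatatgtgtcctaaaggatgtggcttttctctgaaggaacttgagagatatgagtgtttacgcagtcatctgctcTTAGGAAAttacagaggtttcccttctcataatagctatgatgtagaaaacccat
F13a1 (chr13:37050245-37050494, minus strand): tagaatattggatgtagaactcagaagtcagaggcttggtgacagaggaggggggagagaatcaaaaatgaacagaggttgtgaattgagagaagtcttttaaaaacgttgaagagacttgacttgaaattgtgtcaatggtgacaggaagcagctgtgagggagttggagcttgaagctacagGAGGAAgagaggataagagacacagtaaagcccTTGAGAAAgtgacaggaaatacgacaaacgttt
Treml4 (chr17:48264045-48264294, plus strand): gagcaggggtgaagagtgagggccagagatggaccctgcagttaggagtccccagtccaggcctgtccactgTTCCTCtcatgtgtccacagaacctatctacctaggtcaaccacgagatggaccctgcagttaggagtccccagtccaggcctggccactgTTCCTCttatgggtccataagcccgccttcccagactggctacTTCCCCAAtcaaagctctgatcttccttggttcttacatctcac
The Ace sequence holds the PU.1 core at 217 and 89 bases before the start and none of the other motifs. Serpinb10 holds an IRF-like match at 84 bases before the start and a block in which a C/EBP-like match (from 63 bases), an IRF-like match (from 59 bases) and an AP-1 match (from 54 bases) overlap. Lilr4b holds a C/EBP-like match at 55 bases. F13a1 holds the PU.1 core at 66 and a C/EBP-like match at 33 bases. Treml4 holds the PU.1 core at 178 and 87 bases and a C/EBP-like match at 44 bases. Such matches are common: among 32851 promoter windows of 250 bases, 23.3% held the PU.1 core, 36.8% the C/EBP-like, 6.75% the AP-1, 14% the RUNX and 7.13% the IRF-like motif. No motif was shared by all members of a pattern and absent from the others, and a match is only a match of letters.

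Several members have a close relative beside them on the same chromosome. Lilrb4a, the neighbour of Lilr4b on chromosome 10, had a signal of 7879 in the BBP female pool, against 14098 in the control female pool, and of 10716 in the BBP male pool, against 6606 in the control male pool. Its log2 ratios of -0.84 and 0.70 differed between the pairs by 1.54, close to the 1.53 of Lilr4b, and both genes were lowest in the control male pool. Lyz1, the lysozyme of Paneth cells and the neighbour of Lyz2, had signals of 3019 in the BBP female pool, against 5570 in the control female pool, and of 4462 in the BBP male pool, against 5189 in the control male pool (log2 -0.88 and -0.22). Ly6c1, beside Ly6c2 on chromosome 15, had signals of 778 in the BBP female pool, against 773 in the control female pool, and of 625 in the BBP male pool, against 595 in the control male pool (log2 0.01 and 0.07). Lyz1 had the same order of pools as Lyz2, and Ly6c1 differed as little as Ly6c2. Signal shared through probes that match both genes was not tested.

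The ratio of the male over the female pool within each exposure comes from the same 4 arrays, and its difference between the exposures equals the difference between the pairs, so that these ratios describe the same values from another side. Ace was 2.56-fold higher in the male than in the female pool under BBP (log2 1.35) and 1.21-fold lower in the male pool of the controls (log2 -0.27). Serpinb10 was higher in the male pool under BBP (log2 0.80) and lower in the male pool of the controls (log2 -0.79). The same change of side was seen for Lilr4b (log2 0.65 under BBP and -0.89 in controls), F13a1 (0.47 and -0.76), Lyz2 (0.50 and -0.20) and Cd14 (0.19 and -0.84). The male pool was thus higher under BBP and lower in controls for 6 of the 10 members, as it was for 1357 of the comparison genes (12.7%), and nothing is read from this share because the difference between the pairs was known when the members were chosen.
Treml4, Csf1r and Ly6c2 were lower in the male pool under both exposures. Their log2 male/female ratios were -0.34 under BBP and -0.31 in controls for Treml4, -0.11 and -0.20 for Csf1r, and -0.27 and -0.43 for Ly6c2. Over the comparison genes the medians were -0.05 under BBP and 0.02 in controls.

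**Figure D3:**
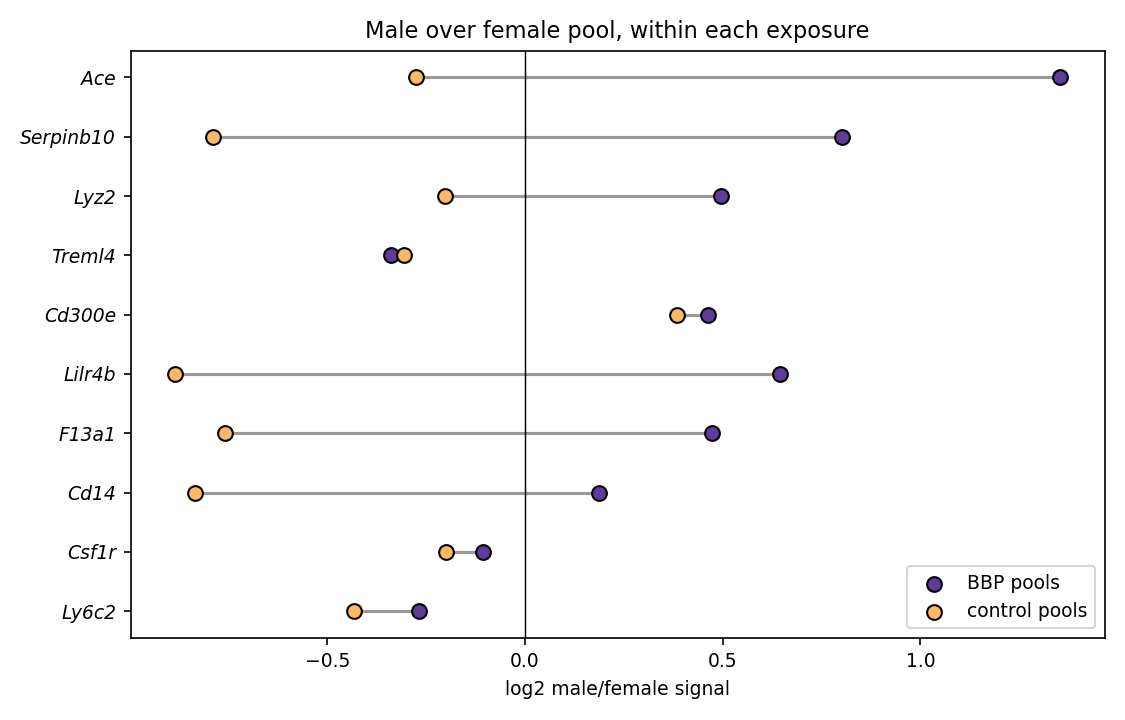
log2 ratio of the male over the female pool for each monocyte gene, in the BBP pools (purple) and in the control pools (orange), 1 pool per sex and exposure, with a vertical line at 0. Ace, at 1.35 in BBP and -0.27 in control pools, and Serpinb10, at 0.80 and -0.79, cross 0, while the points of Treml4, Csf1r and Ly6c2 lie on the same side.

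Over the 4 pools the log2 signals of Ace, centred on their mean, were nearest to those of Mcpt8 (distance 0.42), Ifitm3 (0.44), Clec4a3 (0.45), Naaa (0.51) and Hnrnpa1l2-ps2 (0.52) among 7466 other comparison genes that RefSeq lists as protein-coding and that have more than a number for a name, where the distance is Euclidean and 0 means an identical pattern. Serpinb10 came next, at rank 6 (0.54). Mcpt8 is a protease of basophils, Ifitm3 an interferon-induced membrane protein, Clec4a3 a C-type lectin receptor of monocytes and Naaa a lysosomal amidase. Clec4a3 had a signal of 692 in the BBP female pool, against 1831 in the control female pool, and of 1183 in the BBP male pool, against 1498 in the control male pool. Like Ace, these genes were lowest in the BBP female pool.
Nearest to Serpinb10 were Hnrnpa1l2-ps2 (0.28), Clec7a (0.32), Ifitm3 (0.33), Krt80 (0.34) and Slfn4 (0.35), and Ace came at rank 21. Clec7a, the beta-glucan receptor Dectin-1, had a signal of 2259 in the BBP female pool, against 5230 in the control female pool, and of 2908 in the BBP male pool, against 2899 in the control male pool. Ifitm3 had 286 in the BBP female pool, against 750 in the control female pool, and 488 in the BBP male pool, against 575 in the control male pool. Among the members themselves, the closest patterns were those of Ly6c2 and Csf1r (0.23), Lilr4b and F13a1 (0.47) and Serpinb10 and Lyz2 (0.47). With 4 arrays many genes share a pattern, and these distances are a description.

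Other genes of the lineage were taken from lists of classical, nonclassical and shared monocyte genes, written with earlier results of these data known. Of 64 such genes that are not members, 53 could be compared. In the female pair 42 of the 53 were below 0 (79.2%, beside 62.2% of all comparison genes) and their median log2 ratio was -0.33, beside -0.09 over all comparison genes. In the male pair 34 were below 0 (64.2%, beside 68.9%), with a median of -0.16 beside -0.15 (0.02 after median scaling, beside 0.02). Both pairs were below 0 for 29 of the 53 (54.7%, beside 51.5%) and had opposite signs for 18 (34.0%, beside 27.8%), shares near those of all comparison genes, and 0 were at least 2-fold lower in both. With both control pools as the reference the medians were -0.21 in females and -0.19 in males, beside -0.10 and -0.14 over all genes. The female median of the lists was then nearer to that of all genes than with the control female pool alone, and still below it.

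Among the classical genes the median was -0.33 in the female and -0.17 in the male pair (13 genes). Ccr2, the chemokine receptor for CCL2, had a signal of 626 in the BBP female pool, against 1222 in the control female pool, and of 752 in the BBP male pool, against 838 in the control male pool. Plac8 (log2 -0.62 and -0.70 in the female and the male pair) and S100a4, a calcium-binding protein (-1.08 and -0.61), were below the control in both pairs. Chil3, a chitinase-like protein of monocytes, macrophages and neutrophils, was above it in both (0.50 and 1.21). These genes of the same list thus lay on both sides of 0.

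The nonclassical genes had medians of -0.33 and -0.13 (17 genes). Nr4a1, the transcription factor on which nonclassical monocytes depend and an immediate-early gene of many stimulated cells, had a signal of 6138 in the BBP female pool, against 3304 in the control female pool, and of 9824 in the BBP male pool, against 3912 in the control male pool. It was above the control in both pairs (log2 0.89 and 1.33). Clec4a3 (-1.40 and -0.34), Clec4a1, of the same lectin family (-0.62 and -0.54), and Adgre4, an adhesion receptor (-0.58 and -0.73), were below it in both pairs. The list was mixed: Itgax, the CD11c integrin chain, was above the control in both pairs as well (0.23 and 0.31).

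Genes shared by both subsets had medians of -0.34 and -0.08 (23 genes), with 15 below 0 in both pairs (65.2%, beside 51.5% of all comparison genes). Ctss, the cathepsin that trims the class II invariant chain, had a signal of 30274 in the BBP female pool, against 47749 in the control female pool, and of 33724 in the BBP male pool, against 58293 in the control male pool. Mpeg1, the pore-forming protein perforin-2 (log2 -0.88 and -0.50), Tyrobp, the signalling adaptor of TREM receptors (-0.49 and -0.86), and Ifitm3 (-1.39 and -0.24) were also below the control in both pairs.
Like Lilr4b, some myeloid genes were lowest in the control male pool (chosen after their values were seen). Itgam, the CD11b integrin chain, had a signal of 4176 in the BBP female pool, against 6172 in the control female pool, and of 4142 in the BBP male pool, against 2631 in the control male pool. F5, coagulation factor V, had log2 ratios of -0.75 and 0.65, and Csf3r, the receptor for granulocyte colony-stimulating factor, had -0.18 and 0.86. Over all comparison genes the BBP female pool was the lowest of the 4 for 31.7% and the control male pool for 19.1%.

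The families and pathways of the members did not share one pattern. The 11 transcription factors of the lineage had medians near 0 (-0.01 and -0.09). Among them Irf8, needed for monocyte development, had log2 ratios of -0.36 and -0.13, Irf5 had -0.26 and -0.29, and Runx1 had 0.31 and 0.34. Of the genes for CSF receptors and ligands other than Csf1r, 5 could be compared (medians 0.17 and 0.25), and Flt3l, the ligand of the FLT3 receptor, had 0.69 and 0.25, against -0.54 and -0.05 for Csf2ra.
The 13 genes of lipopolysaccharide recognition other than Cd14 had medians of 0.14 and -0.03. Ly86, the partner of the receptor CD180, was below the control in both pairs (-0.37 and -0.69), as was Tlr4, the lipopolysaccharide receptor itself (-0.14 and -0.49). Lbp, which transfers lipopolysaccharide to CD14, was above it (0.26 and 0.74).

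Of the angiotensin peptide system besides Ace, 3 genes could be compared. Atp6ap2, the prorenin receptor, had log2 ratios of -0.09 and -0.46, and Anpep, an aminopeptidase, had 0.19 and 0.05. Ctsg, cathepsin G, had -0.61 and 0.07, with signs like those of Ace and a female ratio nearer to 0. The 4 other clade B serpins that could be compared had medians of -0.04 and -0.09. Serpinb1a, an inhibitor of neutrophil proteases, had -0.09 and -0.03, and Serpinb9, the granzyme B inhibitor, had -0.31 and -0.09. The ratio of Serpinb10 in the female pair was below those of all 4.
The 4 other genes of the LILR and PIR receptors had medians of -0.71 and -0.05. Pirb, an inhibitory receptor (-0.58 and -0.04), Lilra6 (-0.92 and -0.07) and Lilra5 (-0.53 and -0.59) were below the control in both pairs. Lilr4b and Lilrb4a were above it in the male pair. The male ratios of Pirb and Lilra6 were near 0 and would turn positive with the 0.17 that median scaling adds. Lilra5 had signals of only 73.9 to 121.2 in the 4 pools.

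The 7 other genes of the TREM family and its adaptors had medians of -0.04 and -0.34. Hcst, the adaptor DAP10, had log2 ratios of -0.12 and -1.18, and Pilra had -0.24 and -0.34. Trem1, an amplifying receptor of neutrophils and monocytes, went the other way from Treml4, with a signal of 325 in the BBP female pool, against 202 in the control female pool, and of 390 in the BBP male pool, against 160 in the control male pool. The 5 CD300 genes other than Cd300e had medians of -0.10 and -0.20, with Cd300lb at -0.97 and -0.50 and Cd300lf at 0.27 and 0.60.
Of the Ly6 family 5 genes other than Ly6c2 had medians of -0.03 and -0.20. Ly6d, a marker of early B cells, was 1.45-fold lower in the female and 2.08-fold lower in the male pair. Among the 4 coagulation and transglutaminase genes other than F13a1 (medians -0.44 and 0.43), Plaur, the urokinase receptor, had 0.45 and 0.65, and Tgm1 had -0.49 and -0.26. The other two, F5 (-0.75 and 0.65) and Thbd, the thrombin receptor thrombomodulin (-0.40 and 0.20), had the signs of F13a1.
The lysosomal genes were the most uniform of these groups. Of 13 besides Lyz2, 12 were below 0 in both pairs, against 51.5% of all comparison genes, and their medians were -0.25 and -0.42. Hexa, a subunit of hexosaminidase, had -0.43 and -0.67, and Lamp1, a protein of the lysosomal membrane, had -0.37 and -0.52.

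**Figure D4:**
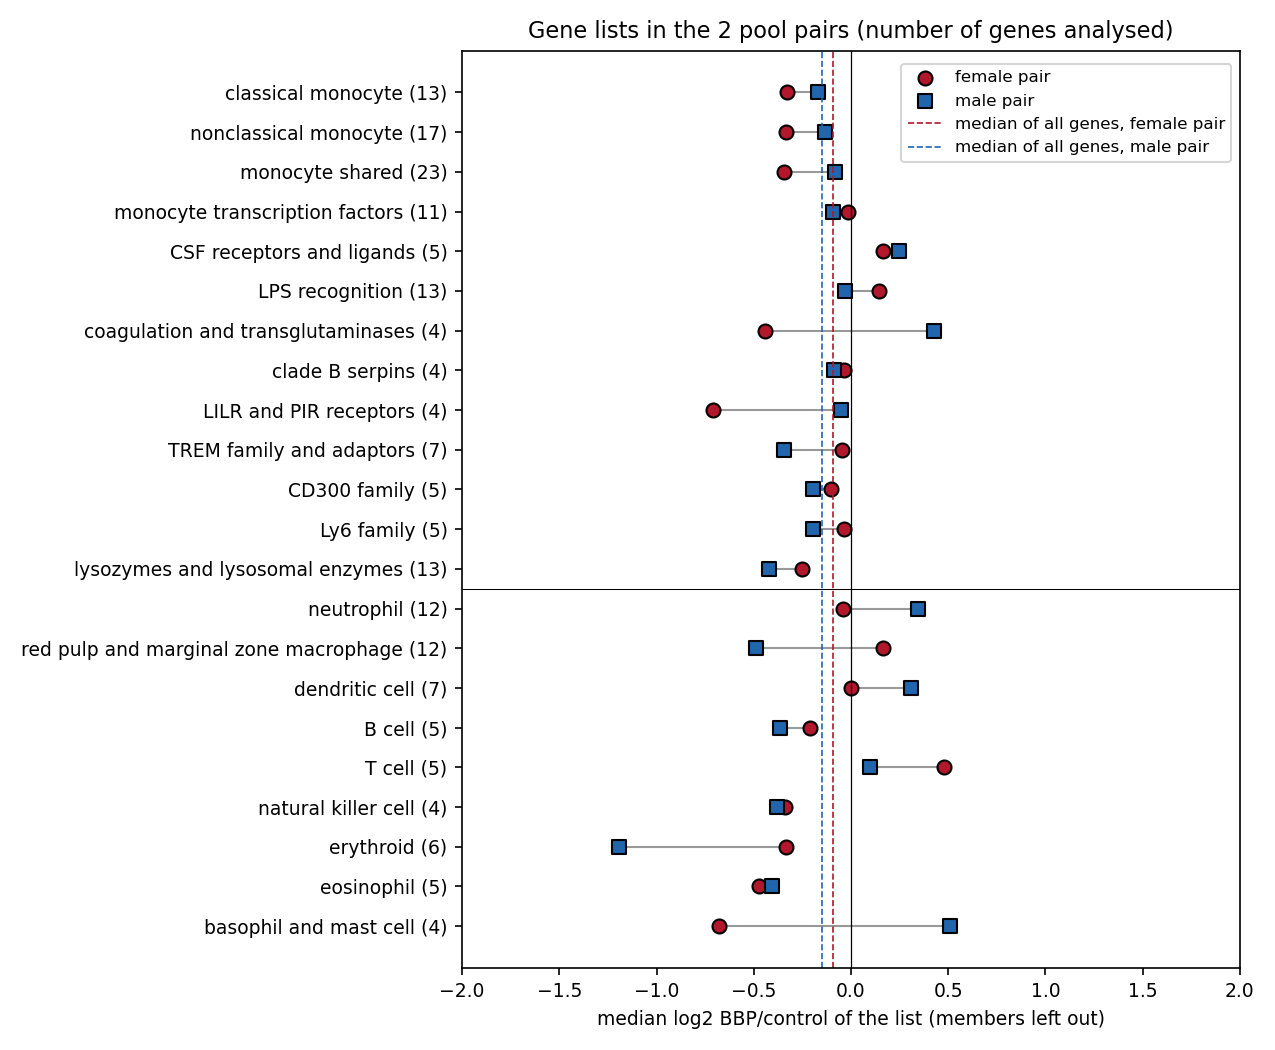
Median log2 ratio of BBP over control of the gene lists in the female pair (red circles) and in the male pair (blue squares), with the 10 monocyte genes left out and the number of genes compared in brackets. Dashed lines show the medians of all comparison genes, and lists under the black line mark other cell types. The angiotensin, megakaryocyte and platelet, and endothelial lists are not drawn because few of their genes could be compared. The 3 monocyte lists lie at -0.33 to -0.34 in the female pair and at -0.17 to -0.08 in the male pair, where median scaling adds 0.17 to every ratio.

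Markers of other cell types moved between the pools as well, and their part in the values of the monocyte genes was not tested. All 12 neutrophil markers could be compared, with medians of -0.04 in the female (0.08 after median scaling) and 0.34 in the male pair. Of the 12, 7 were lowest in the control male pool, beside 19.1% of all comparison genes. Lilr4b and F13a1 were lowest in that pool too. Mpo, myeloperoxidase, had a signal of 6923 in the BBP female pool, against 8929 in the control female pool, and of 6309 in the BBP male pool, against 3875 in the control male pool. Ltf, lactoferrin, had log2 ratios of -0.07 and 0.90. The list was not uniform, as 5 of the 12 were below 0 in the male pair, beside 68.9% of all comparison genes. Among the 5 were Retnlg, a resistin-like protein (-1.50 and -0.55), and Camp, the cathelicidin (-0.04 and -0.41). With both control pools as the reference the medians were 0.17 and 0.05. The summed signal of the 12 markers was 761829 in the BBP female pool, against 840644 in the control female pool, and 843408 in the BBP male pool, against 799278 in the control male pool, a sum made up largely by S100a8 and S100a9.
Of 6 markers of basophils and mast cells 4 could be compared, with medians of -0.68 and 0.51, and Mcpt8, the nearest gene to Ace, is one of them. Mcpt8 and Prss34, a protease of basophils (-0.99 and 0.68), had the signs of Ace, whereas Cpa3, the mast cell carboxypeptidase, was above the control in both pairs (0.80 and 0.69). The Mcpt8 signal was 262 in the BBP female pool, against 518 in the control female pool, and 503 in the BBP male pool, against 436 in the control male pool. The summed signal of the 4 was 4021 in the BBP female pool, against 3891 in the control female pool, and 4451 in the BBP male pool, against 2904 in the control male pool. Cpa3 alone had 2842.5 in the BBP female and 1631.7 in the control female pool. In males it had 2366.0 in the BBP and 1462.5 in the control pool, so that its part of the sum differed between the pools. Fcer1a, which defines these cells, was at 17.8 to 23.2 in the 4 pools, below the median of the negative controls.

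Markers of red pulp and marginal zone macrophages (12 of 14 compared) had medians of 0.17 and -0.49, with summed signals of 72286 in the BBP female pool, against 60782 in the control female pool, and of 52456 in the BBP male pool, against 66759 in the control male pool. Spic, the transcription factor of red pulp macrophages, had log2 ratios of 0.85 and -0.10, and Marco was at 58.8 to 79.7. In the female pair 4 of the 12 were below 0, as Ace, Serpinb10 and Lyz2 were, and the other 8 above it, where 62.2% of all comparison genes were below 0. Dendritic cell markers (7 of 10) had medians of 0.00 and 0.31 and T cell markers (5 of 6) medians of 0.48 and 0.10. B cell (5 of 6), natural killer cell (4 of 7), eosinophil (5 of 6) and erythroid (6 of 10) markers had medians below 0 in both pairs, from -0.21 to -0.48 in the female and from -0.37 to -1.19 in the male pair.
Megakaryocyte and endothelial markers bear on F13a1 and Ace, which platelets and the vessel wall carry too. Of 9 megakaryocyte and platelet markers 1 passed the filter, Ppbp, with log2 ratios of -0.62 and -0.66, and Pf4 was at 55.1 to 93.6. Of 9 endothelial markers 2 passed, Pecam1 and Stab2, both above the control in both pairs, and Cdh5 and Kdr were at 27.5 to 35.6, below the median of the negative controls in all 4 pools.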

How the data were processed

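Splenocyte RNA was pooled by sex and maternal exposure and hybridised to 4 Clariom D mouse arrays. The authors extracted the fluorescence with MAS 5.0 and scaled the arrays against each other, and the deposited values are linear signal intensities. No source used here gives the scaling target, the detection calls or the genome build. Of 72688 features, 6732 were controls and 65956 transcript clusters, of which 31295 had 1 gene symbol, 1519 several and 33142 none. Older symbols were updated through RefSeq (GRCm38.p6), which held 30739 of 30741 symbols. Where a symbol had several clusters, the one with the highest mean signal was kept, and 10719 genes whose signals reached 100 on 2 or more arrays were the comparison, 7675 of them protein-coding.

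The log2 ratio of BBP over control was taken within each sex, without a pseudocount. With 1 pool per group no test was run and no p-value is given. The spread between the pairs was read against genes of like mean signal, taken from 3 equal groups of 3573 genes. The 10 members and the 25 gene lists (305 genes, of which 265 had 1 cluster and 189 passed the filter) were chosen with earlier results of these data known. Named were all members, their relatives Ly6c1, Lyz1 and Lilrb4a, and the 5 protein-coding genes nearest to Ace and to Serpinb10 (genes known only by a number left out). From each list, other than those of other cell types, up to 4 genes with the largest mean ratio and the same sign in both pairs were named. For other cell types, defining markers and markers at background were named, and S100a8 and S100a9 for their part in a sum. Exceptions are marked in the text, except that Itgax, Ctsg, Thbd, Retnlg, Camp, Cpa3, Prss34, Mpo and Ltf were likewise named after their values were seen. Promoters came from RefSeq. Alternatives were quantile normalization, median scaling, a pseudocount of 50, the mean of all clusters of a symbol, no filter or a signal of at least 200, a fold of 1.5, protein-coding genes alone and, added after the data were seen, both control pools as the reference. The ratio and count steps were tested on simulated data. Python 3.11.15, numpy 2.4.6, pandas 2.3.3 and matplotlib 3.10.9 were used.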

Additional observations from a re-analysis of the deposited data

Results flagged for a closer look

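Opposite signs in the female and the male pair drew attention to 6 of the monocyte genes, and none of these differences was tested, since each pair holds 1 pool per exposure. The log2 ratio of the male pair minus that of the female pair was 1.63 for Ace, 1.59 for Serpinb10, 1.53 for Lilr4b, 1.23 for F13a1 and 1.02 for Cd14, which lay near background, and only 0.16 for Ly6c2. For all 6 the female ratio was below 0 and the male ratio above it.

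Of the named genes outside the set, Lilrb4a (1.54), F5 (1.40), Itgam (1.22), Mpo (1.07), Csf3r (1.04) and Ltf (0.98) had ratios on the same 2 sides of 0, again untested, and all 6 were lowest in the control male pool. F5, Itgam, Mpo, Csf3r and Ltf were named after their values were seen, so that nothing is read from this likeness. The genes nearest to Ace and Serpinb10 that had opposite signs were Slfn4 (1.40), Clec7a (1.22), Hnrnpa1l2-ps2 (1.20), Mcpt8 (1.19) and Krt80 (1.05), likewise untested. The same signs were seen, untested, for Prss34 (1.67), Ctsg (0.67) and Thbd (0.60), named after their values were seen. Thbd had signals of only 90.4 to 119.4. The nearest genes were chosen for their likeness to Ace or Serpinb10, and 27.8% of all comparison genes had opposite signs.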

How the results depend on the processing

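With 1 pool per group no pool could be left out, and no paired analysis was possible because each group holds 1 pool and no result comes from a test. The alternatives were run for single ratios of the 10 members only, and none of the members' ratios of at least 2-fold changed sign under them. Median scaling shifted the medians over all comparison genes to 0.03 in the female and 0.02 in the male pair. Under it Csf1r in males was at 0.04 and the monocyte lists in males at 0.02. At least 2-fold higher in the male pair were 2 members instead of 1, Lilr4b and Cd14, beside 324 of 10727 genes. Cd14 did not pass the signal filter and lay near background. Of these genes 115 were at least 2-fold lower in the female pair and 24 in both, against 204 and 58 without median scaling. With both control pools as the reference, a setting added after the data were seen, 0 members were at least 2-fold higher in the male pair and 2 instead of 6 had opposite signs. Ace in males was at -0.01 and Serpinb10 at -0.25, Lilr4b and Cd14 in females at 0.16 and 0.30, and Ly6c2 at 0.08 in females and -0.19 in males. Both pairs then share 1 reference, so fewer opposite signs follow in part from the setting itself. The matching counts over all comparison genes were not computed under it, and nothing is read from the members' counts. At a limit of 1.5-fold, 5 of the 10 members were lower in the female pair, 3 higher in the male pair and 2 lower in both. Of the 10719 comparison genes, 1294, 487 and 475 were, the last being 4.43%. Nothing is read from these counts, as the members were picked with this contrast known. Cd14 and Cd300e, which did not pass the filter, are counted among these members. Genes at least 2-fold higher in the male pair numbered 140 with a pseudocount of 50, 399 without a filter and 139 at a signal of at least 200, against 250, and 34 were lower in both with the pseudocount. Among protein-coding genes alone, 67 were lower in the female pair, 81 higher in the male pair and 37 lower in both. The filters and the protein-coding setting compare other numbers of genes, and the 1.5-fold limit is a lower bar; the cause of the other changes was not tested.

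The precision is limited by 4 arrays. Cd14 and Cd300e lay at background and the 333 of Ace and 868 of F13a1 in the BBP female pool were below the 95th percentile of the negative controls, 904. Many genes outside the set were as low, since the comparison genes had median signals of 470.1 to 527.2 on the 4 arrays. For example, Trem1 and Mcpt8 were below the 95th percentile of their array in all 4 pools. Ccr2, Ifitm3 and Ly6c1 were below it in both BBP pools.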
